A study of Homo sapiens with 15 samples.

Results

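Peaks of the chromodomain protein MPP8 that lie outside protein-coding genes were compared between K-562 cells that lack TASOR and K-562 cells that lack TASOR2. A peak was taken when its interval on the build hg38 overlapped no RefSeq protein-coding gene body by 1 bp or more, and 290 of the 691 deposited peaks did so. These were 198 of 427 peaks (46.4%, exact 95% interval 41.6 to 51.2) in the TASOR KO list and 92 of 264 (34.8%, 29.1 to 40.9) in the TASOR2 KO list. The peaks outside protein-coding genes were split into those that met only noncoding genes or pseudogenes (65 and 41) and those that met no annotated gene (133 and 51).

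The series is a ChIP-seq study of the human silencing hub (HUSH) in K-562, an established leukaemia line. Each list came from 1 library, precipitated with an antibody to MPP8, from a CRISPR/Cas9 knockout line that was grown from a single colony and is therefore 1 clone, with genotype TASOR KO or TASOR2 KO. The labels also describe a lentiviral vector, empty with puromycin resistance or with a FLAG-tagged transgene, and do not say whether the cells behind these lists carried it. Unedited and MPP8 KO cells and input chromatin were not analysed here, and the background of the antibody at these peaks is unknown. Every interval covers counting error only, treats peaks as independent and compares the lists, not the genotypes.

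HUSH joins MPP8, which binds methylated lysine on histone H3, to the scaffold TASOR and to periphilin, and it silences LINE-1 elements, retrogenes and other transcribed DNA without introns. TASOR2 is a paralog of TASOR. HUSH is known chiefly for its action on young, full-length LINE-1 elements, many of which lie in introns of transcribed genes. Outside protein-coding genes the annotated genes are mostly long noncoding RNAs (lncRNAs, transcripts that encode no protein) and pseudogenes (disabled gene copies).

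No genome sequence was used, but RefSeq promoter windows of the same assembly, which run from 250 bases before to 50 bases after a gene start, were set against the peaks. TASOR KO peaks met 9 such windows, 6 of them whole, and TASOR2 KO peaks met 3, all whole. This involved 8 of 198 and 3 of 92 peaks. Of the noncoding genes met, only 33 of 69 in TASOR KO and 7 of 33 in TASOR2 KO had a window to compare. A peak met the window of 7 (21.2%) and 3 (42.9%) of these, counts too small to compare the lists. Every window was searched on both strands for the letters of 4 motifs: TATAAA of the TATA box, then CCAAT, the GC box GGGCGG, and an interferon response core of GAAA, a free pair of bases and GAAA. The sequences below are those of the strongest peaks of each list that covered a whole window of a noncoding gene. They are windows placed by annotation, and no regulatory activity was measured in them. They read 5′ to 3′ on the gene's strand, in lower case before the start that the table uses and in capitals for the 50 bases after it.
LOC101928721, chr4:37073974-37074273, plus strand: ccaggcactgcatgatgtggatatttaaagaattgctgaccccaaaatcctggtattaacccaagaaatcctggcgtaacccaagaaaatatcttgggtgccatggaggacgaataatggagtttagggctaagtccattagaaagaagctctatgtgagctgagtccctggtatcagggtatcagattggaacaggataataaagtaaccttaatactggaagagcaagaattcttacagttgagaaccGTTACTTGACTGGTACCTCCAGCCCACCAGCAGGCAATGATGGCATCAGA
ZNF32-AS3, chr10:43628567-43628866, plus strand: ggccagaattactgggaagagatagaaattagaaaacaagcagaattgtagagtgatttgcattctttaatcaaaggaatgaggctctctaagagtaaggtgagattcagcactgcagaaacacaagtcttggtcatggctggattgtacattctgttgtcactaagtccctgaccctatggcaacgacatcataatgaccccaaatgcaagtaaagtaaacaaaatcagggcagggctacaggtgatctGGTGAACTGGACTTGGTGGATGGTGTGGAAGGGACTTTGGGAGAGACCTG
LINC01667, chr21:9821012-9821311, minus strand: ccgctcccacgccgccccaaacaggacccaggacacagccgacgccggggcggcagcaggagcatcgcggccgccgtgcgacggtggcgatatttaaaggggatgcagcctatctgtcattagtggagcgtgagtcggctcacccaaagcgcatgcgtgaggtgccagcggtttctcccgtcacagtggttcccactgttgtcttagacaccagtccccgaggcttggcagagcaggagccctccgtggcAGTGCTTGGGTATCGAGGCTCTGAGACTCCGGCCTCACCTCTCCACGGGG
LOC107986840, chr7:119706322-119706621, plus strand: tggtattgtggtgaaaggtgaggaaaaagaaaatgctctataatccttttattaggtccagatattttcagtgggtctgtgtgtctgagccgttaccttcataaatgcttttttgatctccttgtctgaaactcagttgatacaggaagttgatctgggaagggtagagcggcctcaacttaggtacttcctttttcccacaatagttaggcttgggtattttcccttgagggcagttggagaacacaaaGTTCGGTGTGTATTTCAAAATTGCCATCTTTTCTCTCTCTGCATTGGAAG

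The first pair lay in TASOR KO peaks, of rank 6 and rank 14 among the 427 peaks of that list. The window of LOC101928721 had a GC content of 44.0% and 3 CpG dinucleotides, and that of ZNF32-AS3, an antisense transcript beside a zinc finger gene, had 44.0% and 1. Both are CpG-poor beside the median promoter window of a noncoding gene, which had a GC content of 50% and 5 CpGs. Other windows covered whole by TASOR KO peaks were mixed, with 28 CpGs (LOC105375980), 13 (ZNF433-AS1), 3 (LOC101927879) and 1 (LOC107986384). The second printed pair lay in TASOR2 KO peaks, of rank 6 and rank 118 among 264. The LINC01667 window had a GC content of 64.7% and 25 CpGs, whereas the LOC107986840 window had 41.3% and 3. The GC box stood on both strands of the LINC01667 window, and is held by 25.5% of 12910 noncoding and 44.9% of all 35085 windows. CCAAT stood on the reverse strand of the LOC101928721 and LOC107986840 windows, and is held by 34.5% of noncoding windows. The interferon response core stood in the LOC107986840 window, starting at its base 23, and is held by 4.28% of noncoding windows. The TATA letters, held by 15.1% of noncoding windows, were in none of the 4 printed windows. A match is a run of letters and not a measured site.

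The peaks outside protein-coding genes were mostly weak, as judged by the q-values that the authors' peak caller gave. These q-values and the fold enrichments are the authors' own values per peak, used here only to describe and rank peaks within a list, and the sequencing depth behind them is unknown. The authors' q was at most 0.05 in 52 of 198 TASOR KO peaks (26.3%, exact 95% interval 20.3 to 33.0), below the 32.3% of the whole list. In TASOR2 KO this held for 26 of 92 (28.3%, 19.4 to 38.6), near the 29.9% of that list. Against the peaks that meet protein-coding genes in the same library, the odds of such a q were lower in TASOR KO (odds ratio 0.593, exact 95% interval 0.382 to 0.914) and did not differ beyond counting error in TASOR2 KO (0.885, 0.484 to 1.59). Median fold enrichment was 3.29 and 3.85, beside 3.40 and 3.99 for peaks in protein-coding genes. In fold, the peak classes thus differed little in both lists.

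Some peaks lay close to the boundary that the rule draws. The TASOR KO peaks just outside a gene lay 232 bp before UGDH, which makes UDP-glucuronic acid, 346 bp before the ribosomal protein gene RPS12 and 351 bp before ZNF544. The TASOR KO peaks just inside overlapped ZNF808 by 28 bp, BTN3A3 by 109 bp and EIF2AK2, the antiviral kinase PKR, by 164 bp. For TASOR2 KO the nearest outside lay 341 bp after ZNF254, 549 bp after FBXO5 and 612 bp after POLR3E, and the least overlaps were 215 bp with OPN1SW, 501 bp with TUSC3 and 540 bp with ZNF845.

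Noncoding genes were met by 65 of 198 TASOR KO peaks (32.8%, exact 95% interval 26.3 to 39.8) and by 41 of 92 TASOR2 KO peaks (44.6%, 34.2 to 55.3). The odds in TASOR2 KO were 1.64 times those in TASOR KO (0.958 to 2.81), so the lists did not differ beyond counting error in this share. Odds ratios between the lists take TASOR KO as the base throughout. Of all 1768 Mb outside protein-coding genes, 23.2% is annotated as noncoding gene or pseudogene. The midpoints of TASOR KO peaks fell there at 26.3% (20.3 to 33.0), close to that share, and those of TASOR2 KO peaks at 41.3% (31.1 to 52.1), above it. TASOR2 KO peaks within 100 kb of each other were also taken as 1 locus. The strongest peak then overlapped a noncoding gene in 38.8% of 67 loci (27.1 to 51.5). This is a share by overlap, to be set beside the 44.6% of peaks and not beside the shares of midpoints or bases.

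The noncoding genes of the TASOR KO list were diverse. Its 65 peaks met 69 genes. Of the peaks, 48 met lncRNA genes alone, 15 pseudogenes alone and 2 both. The strongest lay at the start of LOC101928721 on chromosome 4 (chr4:37069302-37075989, fold 6.57), followed by LOC124901175 on chromosome 5 (fold 6.04), LINC00944 (fold 5.62), ZNF32-AS3 (fold 5.64), KLRK1-AS1 (fold 5.47), LOC105373352 (fold 5.23), the pseudogene MRPL45P1 (fold 5.25) and LINC00921 (fold 4.58). All 8 had a q under 0.001. Antisense transcripts, named for the gene they run against, were met by 7 TASOR KO peaks and by 0 of 41 TASOR2 KO peaks, which allows a share of up to 7.32% (3 counts of the total, as for every count of 0). One peak lay in NRIR, a lncRNA known as a negative regulator of the interferon response, 3998 bp after the end of its neighbour CMPK2, an interferon-stimulated nucleotide kinase gene (fold 4.38, q 0.00241).

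The noncoding genes of the TASOR2 KO list were fewer, as were its peaks, and a minority of them were met repeatedly. Its 41 peaks met 33 genes. Of the peaks, 24 met lncRNA genes alone, 13 pseudogenes alone and 4 both. The lncRNA LINC02476 on chromosome 7 held 8 peaks, LINC01667 on chromosome 21 held 4, and the pseudogene ZNF37BP on chromosome 10, a copy of a zinc finger gene, held 3. In TASOR KO the most peaks in 1 noncoding gene was 3, in LOC105375451. A pseudogene was met by 17 of the 65 peaks in TASOR KO and 17 of the 41 in TASOR2 KO, with an odds ratio of 1.99 (0.799 to 4.98) that counting error could give. Peaks wholly inside their noncoding gene were 40 of 65 (61.5%, 48.6 to 73.3) and 33 of 41 (80.5%, 65.1 to 91.2). No peak of either list met a gene of a microRNA, snoRNA, tRNA, rRNA or snRNA (0 of 198 and 0 of 92).

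Besides LINC01667, the strongest TASOR2 KO peaks in noncoding genes lay in LINC00861 with the pseudogene SOD1P3 (fold 4.57), in LOC101409256 (fold 4.61), in LOC105375826 (fold 4.42), in ASNSP1, a pseudogene of asparagine synthetase (fold 4.26), and in LOC124903223 (fold 4.21). The highest rank among them was 19. Of the 69 noncoding genes met in TASOR KO and the 33 met in TASOR2 KO, 2 were met in both lists. These were LOC441666, a transcribed pseudogene on chromosome 10, and the lncRNA CCDC26 on chromosome 8. The same count for protein-coding genes was not computed, so whether so small an overlap is particular to noncoding genes was not tested.

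Width differed little between the lists. The median was 1955 bp in TASOR KO (order-statistic 95% interval 1710 to 2180, range 512 to 11940) and 1725 bp in TASOR2 KO (1347 to 1940, range 518 to 9992), and the intervals overlapped. Peaks in protein-coding genes had medians of 1905 and 2016 bp. Among peaks that met no gene the medians were 1937 bp (1639 to 2180) and 1508 bp (1166 to 1823), and among those in noncoding genes 2025 bp (1621 to 2508) and 1895 bp (1158 to 2182). More than 5 kb was covered by 24 TASOR KO and 9 TASOR2 KO peaks, with an odds ratio of 0.787 (0.308 to 1.85). The 3 peaks above 10 kb were all in TASOR KO and all outside any gene. The widest was a gene-free peak of 11940 bp on chromosome 18 (chr18:38935777-38947716, fold 5.33), 1161 kb from the nearest protein-coding gene. In all, the peaks covered 507 kb and 210 kb.

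The full lists differed in the share of peaks within 10 kb of a protein-coding gene. The median distances were similar, 111 kb in TASOR KO (order-statistic 95% interval 80.2 to 147) and 92.0 kb in TASOR2 KO (36.7 to 253), beside 122 kb for all bases outside protein-coding genes. Their order turned in the higher-scoring 50% of each list, with 79.0 kb (34.1 to 108) and 157 kb (7.28 to 442). It also turned, by less, without chromosome 19 or with a margin of 1 kb to genes. The same held at a common q threshold and with equal numbers of peaks, where TASOR KO had 80.2 and 80.1 kb and TASOR2 KO stayed at 92.0 kb. Without the largest group of each list the TASOR2 KO median was 51.5 kb (20.7 to 147). Peaks within 100 kb of each other were also taken as 1 locus, represented by its strongest peak. The TASOR2 KO median was then 26.4 kb (10.4 to 135) and the TASOR KO median 103 kb (76.6 to 142). Within 10 kb lay 26 of 198 TASOR KO peaks (13.1%, 8.76 to 18.6), close to the 12.6% of bases that lie this near. In TASOR2 KO 26 of 92 did (28.3%, 19.4 to 38.6), and the odds ratio was 2.60 (1.34 to 5.03). Within 1 kb the counts were only 7 and 4. The share within 10 kb and its odds ratio were not recomputed at a common q threshold. At that threshold TASOR KO kept 111 peaks, 17 of them within 10 kb of a gene with known strand. TASOR2 KO kept all 92, 25 of them so placed.

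**Figure D1:**
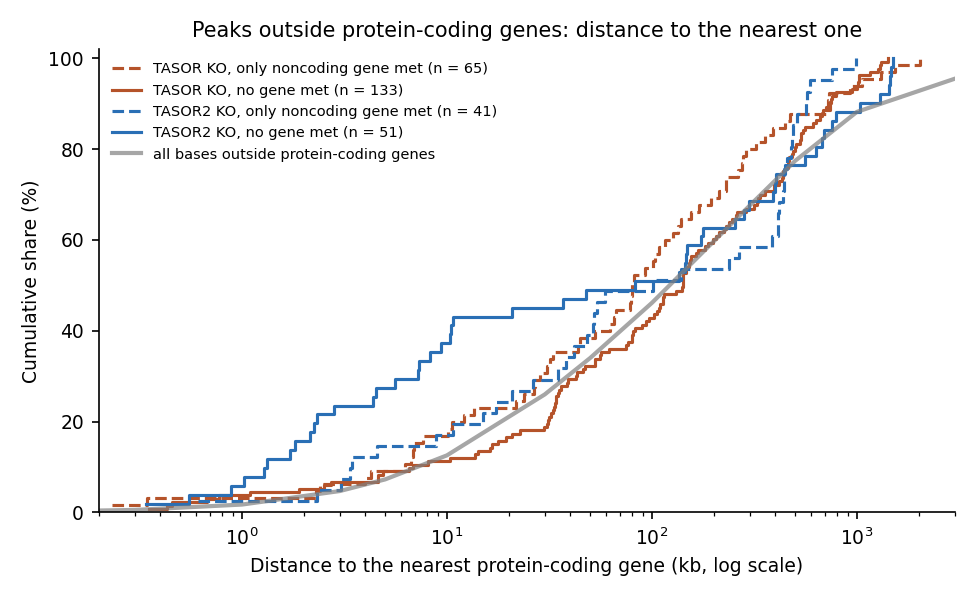
Cumulative share of peaks (vertical axis, %) by distance to the nearest protein-coding gene (horizontal axis, kb, log scale) for each list and class, with the same share for all bases outside protein-coding genes in grey. The solid blue line, TASOR2 KO peaks that meet no gene, reaches 37.3% at 10 kb, beside 11.3% for the solid line of TASOR KO.

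In the full lists, the excess of nearby peaks in TASOR2 KO came from those that met no gene. Of these, 19 of 51 lay within 10 kb of a protein-coding gene (37.3%, 24.1 to 51.9), against 15 of 133 in TASOR KO (11.3%, 6.45 to 17.9). The shares among peaks in noncoding genes were 17.1% and 16.9%. To the nearest gene of any kind, gene-free peaks had a median distance of 5.60 kb in TASOR2 KO (2.93 to 17.5) and 23.5 kb in TASOR KO (15.7 to 34.1). These intervals overlapped at their edges. At a common q threshold, and with equal numbers of peaks, the TASOR KO median was 16.6 kb (13.0 to 30.4). Without chromosomes 1 and 7 the medians were 10.3 kb in TASOR2 KO (1.81 to 31.1) and 18.4 kb in TASOR KO (13.6 to 31.4), with a wider overlap. Within 10 kb of any gene lay 28 of 51 (54.9%) and 35 of 133 (26.3%), an odds ratio of 3.38 (1.64 to 7.06).

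These near peaks sat on different sides of the genes in the 2 lists. Strand was known for 79.1% of protein-coding genes, and for 22 of the 26 TASOR KO and 25 of the 26 TASOR2 KO peaks within 10 kb. After the end (the 3′ side) of the nearest gene lay 22 of the 25 TASOR2 KO peaks (88.0%, 68.8 to 97.5) and 9 of the 22 TASOR KO peaks (40.9%, 20.7 to 63.6). The odds in TASOR2 KO were 9.99 times those in TASOR KO (2.08 to 68.0). Of all bases within 10 kb of a gene with known strand, 47.9% lie after its end, which is inside the TASOR KO interval and below that of TASOR2 KO. The side was examined after the other values had been seen.

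**Figure D2:**
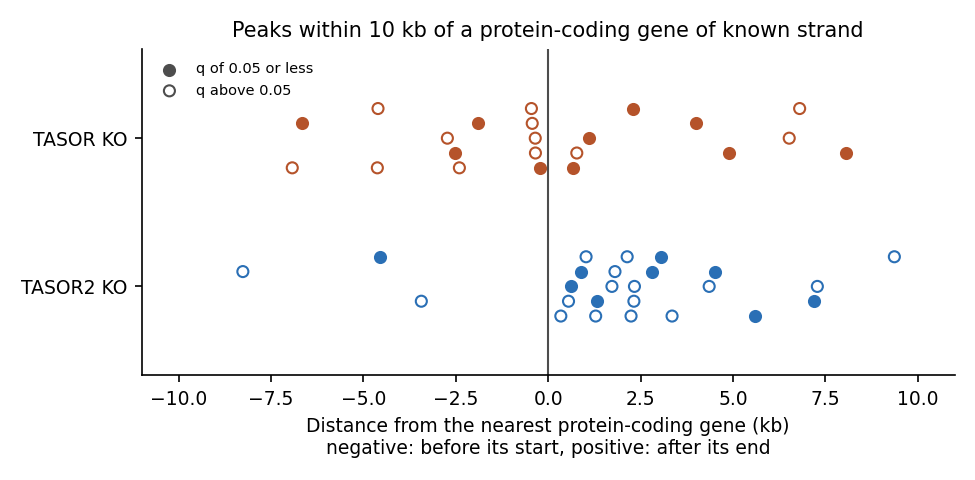
Each point is a peak within 10 kb of a protein-coding gene of known strand, placed by its distance in kb before the gene's start (negative) or after its end (positive), with filled points for a q of 0.05 or less; the vertical scatter only separates points. The TASOR2 KO row has 22 points to the right of 0 and 3 to the left, and the TASOR KO row has 9 and 13.

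The 22 TASOR2 KO peaks followed 22 different genes, at 0.341 to 9.37 kb from the end with a median of 2.28 kb. Those with a q of 0.05 or less followed TMEM209 (7187 bp), KRIT1, the gene of a junction protein mutated in cavernous malformations (5586 bp), POLR3E, a subunit of RNA polymerase III (612 bp), PIK3CB, a catalytic subunit of PI3-kinase, the zinc finger genes ZNF92 and ZNF117, PICALM, which acts in clathrin coats, and PPP6R3. The other 14 followed ZNF546, ADSS2, FAM200A, ZNF12, CHD1L, OSBPL10, FBXO5, ZNF611, TMEM39A, RIC1, ZNF83, ZNF254, FOXK2 and TFRC, the transferrin receptor gene. These genes share no single family, although 7 of the 22 are ZNF genes. The gene starts were neared by 3 TASOR2 KO peaks, at CLDN12, NBPF11 and LOC105370092. Apart from TMEM209, KRIT1 and the nearest 3, these genes were named after their values were seen.

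In TASOR KO 13 peaks lay before a gene start. The strongest was 1907 bp before ZC3HAV1, which encodes the zinc finger antiviral protein ZAP (chr7:139111627-139112709, fold 4.56, q 0.0001). Others with a q of 0.05 or less lay before HTATIP2, before MEFV, the pyrin gene (6668 bp), and before UGDH, across the start of the antisense gene UGDH-AS1. Weaker ones lay before MRPL16, RPS12, OR2A14, ZNF485, ZNF583, ADAMTS6, ACSF2, ZNF544 and ZNF550. The 9 peaks after a gene end followed ATP23 (4894 bp, fold 5.98), ZNF485, CAV2, which encodes a caveolin, CMPK2, the lymphocyte receptor gene CD96, C22orf42, ZNF726, MS4A4E and ZNF626. ZNF485 thus had a TASOR KO peak on either side.

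The difference in side was seen in narrower and wider windows and fell with distance. These windows are nested and share the peaks nearest to genes, so they are not separate tests. Within 5 kb the shares after the end were 18 of 20 in TASOR2 KO and 6 of 17 in TASOR KO (odds ratio 15.0, 2.35 to 177), and within 50 kb they were 29 of 38 and 24 of 54 (3.96, 1.48 to 11.5). Between 10 and 100 kb, which leaves out the peaks within 10 kb, the shares were 9 of 18 and 28 of 53 (0.894, 0.267 to 2.995), and no difference was seen. Without ZNF genes 15 of 18 and 6 of 15 lay after the end (6.99, 1.21 to 54.8). Restricted to a q of at most 0.05, the counts were 8 of 9 and 6 of 10, and the interval then included 1 (4.89, 0.357 to 295).

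Zinc finger (ZNF) genes, whose products include many repressors of retroelements, were the nearest protein-coding gene of 23 TASOR KO peaks (11.6%, 7.51 to 16.9) and 15 TASOR2 KO peaks (16.3%, 9.42 to 25.5), with an odds ratio of 1.48 (0.679 to 3.15). Of all bases outside protein-coding genes, 2.20% have a ZNF gene as the nearest. Without chromosome 19 the TASOR KO share was 6.42%. Within 10 kb of that gene lay only 9 of the 23 TASOR KO and 7 of the 15 TASOR2 KO peaks. All 15 TASOR2 KO peaks lay on the end side of their nearest ZNF gene, at any distance, with 11 such genes. On chromosome 10 lay 6 of them, at 38.0 to 1470 kb from ZNF37A or ZNF33B. Of the TASOR KO peaks, 14 lay after the end and 6 before the start of theirs, with the strand of the other 3 not in the table. Several lay in noncoding relatives of such genes: ZNF812P, ZNF767P and ZNF433-AS1 in TASOR KO, and ZNF788P and ZNF37BP in TASOR2 KO.

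Interferon-stimulated genes, from a list of which 123 genes were found, were the nearest protein-coding gene of 2 TASOR KO peaks (1.01%, 0.123 to 3.60), those at ZC3HAV1 and at CMPK2. No TASOR2 KO peak had such a neighbour (0 of 92, which allows a share of up to 3.26%). The background share of bases was 0.266%. The counts were too small to tell the lists apart.

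TASOR2 KO peaks also lay closer to each other. Another peak outside protein-coding genes of the same list lay within 100 kb of 35 of 92 TASOR2 KO peaks (38.0%, 28.1 to 48.8) and of 33 of 198 TASOR KO peaks (16.7%, 11.8 to 22.6), an odds ratio of 3.06 (1.68 to 5.60). TASOR KO had more peaks and so more chances of a neighbour, and with equal numbers of peaks per list its share was 10.0% and the odds ratio 5.48 (2.49 to 12.9). Within 20 kb the counts were 25 and 14 (odds ratio 4.87, 2.28 to 10.8), and within 500 kb 43 and 77 (1.38, 0.810 to 2.34). The difference was thus one of short range. The smallest gap between peaks outside protein-coding genes was 2025 bp in TASOR2 KO and 6237 bp in TASOR KO.

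**Figure D3:**
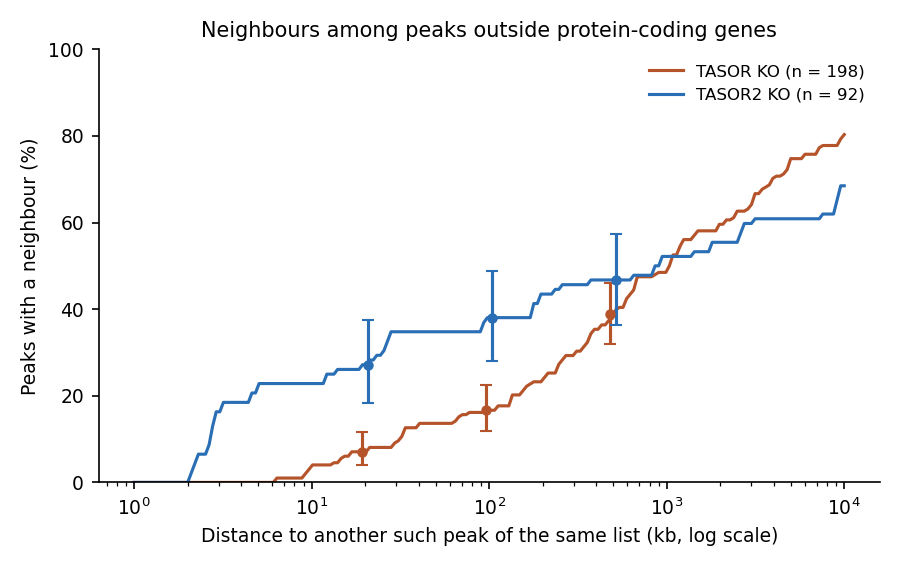
Share of peaks with another peak outside protein-coding genes of the same list within a given distance (horizontal axis, kb, log scale), as lines, with points and bars for the share and its exact 95% interval at 20, 100 and 500 kb. The TASOR2 KO line lies above the TASOR KO line at 20 and 100 kb (27.2% against 7.07%, and 38.0% against 16.7%), and the intervals overlap at 500 kb.

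Peaks in noncoding genes carried most of this. Among them 20 of 41 TASOR2 KO and 8 of 65 TASOR KO peaks had such a neighbour (odds ratio 6.64, 2.38 to 20.3), and among gene-free peaks 15 of 51 and 25 of 133 did (1.79, 0.788 to 3.999). Peaks in protein-coding genes had a neighbour of their own kind within 100 kb at 36.6% in TASOR2 KO and 39.3% in TASOR KO. TASOR KO peaks outside genes were therefore sparser than those inside (odds ratio 0.310, 0.189 to 0.499), whereas in TASOR2 KO no such difference was seen (1.06, 0.607 to 1.85). A few groups decide the size of the difference between the lists. Without the 3 largest groups of each list, the shares were 21.9% and 11.8% and the odds ratio 2.10 (0.959 to 4.52), an interval that includes 1.

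Joined at 100 kb, the TASOR2 KO peaks formed 67 groups, 57 of them single peaks, and the TASOR KO peaks formed 178, 165 of them single. The largest was a TASOR2 KO group of 9 peaks over 295 kb of chromosome 7 (chr7:119593580-119888493), of which 8 lay in LINC02476. Their ranks ran from 101 to 226 of 264, their folds from 3.56 to 3.999, and 0 of the 9 reached a q of 0.05, so the group consists of weak peaks that recur along 1 lncRNA gene of 287946 bp. One of them covered the start of LOC107986840, whose promoter is printed above. The nearest protein-coding gene, the potassium channel gene KCND2, was 384 kb away, and no TASOR KO peak outside protein-coding genes lay within 100 kb.

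The second group stood apart by q but not by fold. It held 5 peaks in 34.1 kb of chromosome 21 (chr21:9790473-9824617), 4 of them in LINC01667, and 3 had a q of 0.05 or less. Folds in this group ran from 2.61 to 4.31. The 2.61 was the lowest of the 92 TASOR2 KO peaks outside protein-coding genes, whose median was 3.85. Ranks 3 and 6 of the whole TASOR2 KO list were among these 5 peaks, with folds of 4.31 and 3.05. The peak of rank 6 covered the CpG-rich start of LINC01667 printed above. A group of 5 gene-free peaks on the same arm of chromosome 7 as CNTNAP2, a neuronal adhesion gene, ended 147 kb before its start (chr7:145833400-145970041). Groups of 3 lay on chromosome 17 (chr17:27144186-27159116, 65.9% of the span covered by peaks) and in ZNF37BP on chromosome 10 (chr10:42514253-42536124).

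**Figure D4:**
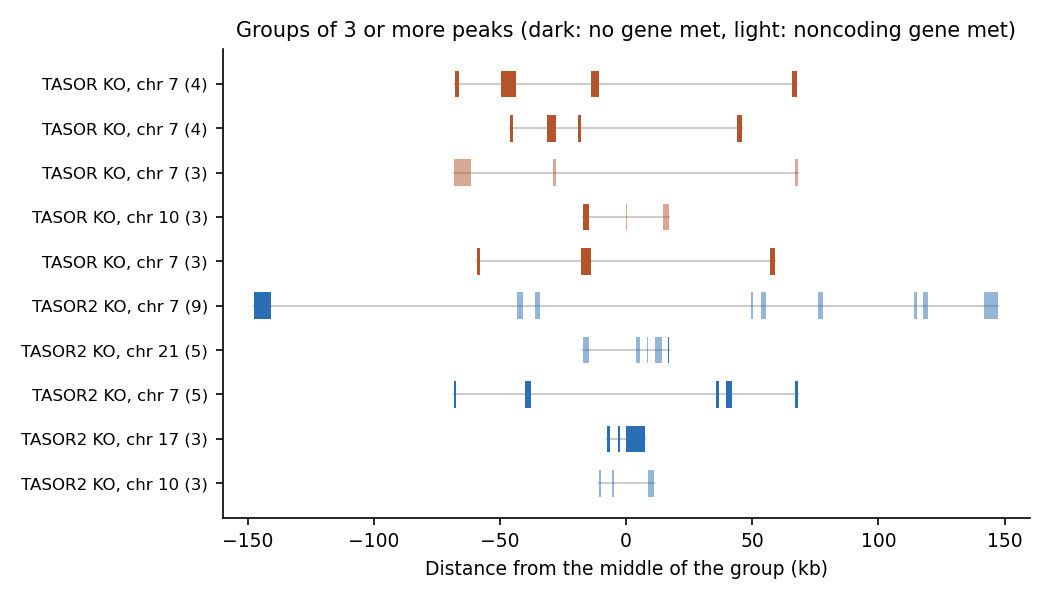
The groups of 3 or more peaks, 1 per row with the chromosome and number of peaks, drawn to scale as distance in kb from the middle of the group; dark blocks are peaks that meet no gene and light blocks peaks in noncoding genes. The TASOR2 KO group of 9 on chromosome 7 spans 295 kb, and those on chromosomes 21, 17 and 10 are under 35 kb wide.

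The TASOR KO groups were smaller. The largest held 4 gene-free peaks each, near the transcription cofactor gene TRIM24 (chr7:138294994-138430433) and 395 kb from IMMP2L (chr7:110175939-110267701). Another, of 3 peaks, lay in LOC105375451 (chr7:110392637-110529091), and groups of 3 were also found on chromosome 10 around LOC441666 (chr10:42326913-42360936) and on chromosome 7 near TMEM229A (chr7:124122471-124240580). Only 1 of these 17 peaks, in the TRIM24 group, had a q of 0.05 or less.

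Chromosome 7 stood out in both lists. It held 54 TASOR KO peaks outside protein-coding genes (27.3%, 21.2 to 34.0) and 24 TASOR2 KO peaks (26.1%, 17.5 to 36.3), in 4.82% of the bases outside protein-coding genes. Its share of these peaks was higher than its share of peaks in protein-coding genes of the same library (odds ratio 2.01, 1.22 to 3.33, in TASOR KO and 2.67, 1.32 to 5.48, in TASOR2 KO). Within it, the 20 Mb from 107 to 127 Mb held 31 of the 54 TASOR KO and 10 of the 24 TASOR2 KO peaks. Of those 10, the group at LINC02476 made up 9, so 1 other TASOR2 KO peak lay in these 20 Mb. Of the peaks in protein-coding genes on chromosome 7, the window held 11 of 36 in TASOR KO and 1 of 20 in TASOR2 KO. The window was not planned beforehand, and its share of bases was not computed.

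**Figure D5:**
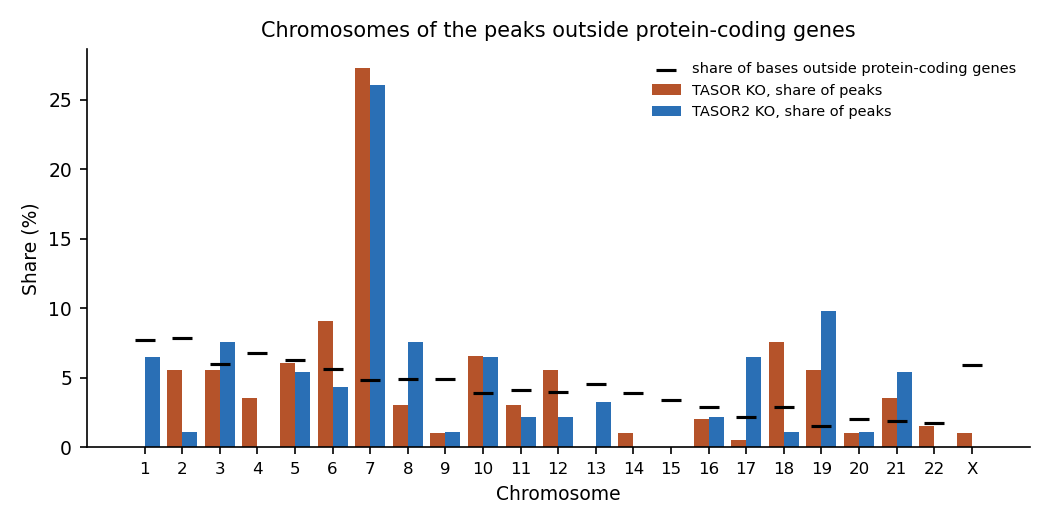
Share of the peaks outside protein-coding genes on each chromosome (bars, %, by list) with the share of bases outside protein-coding genes as black dashes. Chromosome 7 holds 27.3% of these peaks in TASOR KO and 26.1% in TASOR2 KO, beside 4.82% of bases.

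Chromosome 19, rich in ZNF genes, held 5.56% of the TASOR KO and 9.78% of the TASOR2 KO peaks outside protein-coding genes, above its 1.52% of bases there. Relative to the peaks in protein-coding genes it nevertheless showed the reverse of chromosome 7, with 11 and 9 of the peaks outside them against 49 and 56 of those inside (odds ratios 0.217, 0.0984 to 0.439, and 0.226, 0.0929 to 0.493). The lists differed on chromosome 18, with 15 TASOR KO peaks and 1 TASOR2 KO peak (odds ratio 0.135, 0.00315 to 0.902), and on chromosome 17, with 1 and 6 (13.6, 1.62 to 635). These 2 chromosomes were picked after the values were seen. Chromosome 1 held 0 and 6, but no TASOR KO peak of any kind was listed on it, and the peak numbers of both lists have gaps.

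Few peaks outside protein-coding genes lay close to such a peak of the other list. None came within 1 kb of one (0 of 198 and 0 of 92, which allow shares of up to 1.52% and 3.26%). Peaks of the other list inside protein-coding genes were not searched, and the same shares over all peaks were not computed. Whether this is particular to these peaks was therefore not tested. Within 100 kb of such a peak of the other list lay 9 TASOR KO peaks (4.55%, 2.10 to 8.45) and 14 TASOR2 KO peaks (15.2%, 8.58 to 24.2). Without chromosomes 10 and 21 these shares were 2.25% and 6.17%, and with equal numbers of peaks the TASOR2 KO share was 7.61%. The nearest pair, 6809 bp apart, lay in LOC441666 on chromosome 10, with ranks 362 in TASOR KO and 73 in TASOR2 KO. The next pairs were 12.7 kb apart beside LINC01667 on chromosome 21, 17.2 kb on chromosome 20 at FRG1EP, 20.1 kb on chromosome 10 between LINC00839 and ZNF37BP, and 41.8 and 65.8 kb on chromosome 8, the latter both in CCDC26. In these 6 pairs the TASOR KO peak ranked between 201 and 415 of 427.

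Far from any protein-coding gene the lists had similar shares of their peaks. More than 1 Mb away lay 12 TASOR KO peaks (6.06%, 3.17 to 10.3) and 6 TASOR2 KO peaks (6.52%, 2.43 to 13.7), beside 11.8% of bases. The farthest TASOR KO peak, in LINC01901 on chromosome 18, was 2036 kb from PIK3C3 (chr18:39917952-39919720, fold 3.12), and the farthest TASOR2 KO peak was 1492 kb before GPC5 on chromosome 13 (chr13:89904752-89906574, fold 2.93). Among gene-free peaks the strongest in TASOR KO after the first, an 11016 bp peak on chromosome 8, were those after ATP23 (fold 5.98), 34.0 kb from the replication gene MCM5 (fold 5.71), on chromosome 18 (the widest), 1270 kb before ADGRB3 (fold 5.03), 22.8 kb after BLVRA, the gene of biliverdin reductase (fold 4.95), before ZC3HAV1, and 76.6 kb after GPD2 (fold 4.80). In TASOR2 KO they were 253 kb before CNTNAP2 (fold 4.20), 561 kb after ZNF37A (fold 4.38), 752 kb before ADGRB3 (fold 4.43), after TMEM209 and KRIT1, 82.8 kb before IL6, the interleukin-6 gene (fold 4.48), 135 kb before WSB1 (fold 4.14) and on chromosome 20 (fold 4.04). The strong peaks before ADGRB3, an adhesion receptor gene, in the 2 lists lay 513 kb apart.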

How the data were processed

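MPP8 ChIP-seq peak lists of 2 K-562 samples, TASOR KO and TASOR2 KO, were used out of 15 samples in the series, and the other 13 were not analysed here. Samples were grouped by the genotype in their labels. Per the labels' protocols, 80 µg of human chromatin with 1 part in 40 of mouse spike-in chromatin was precipitated. The submitters' processing notes name Bowtie2 2.3.5.1, MACS2, deepTools and the builds hg38 and mm9. Peak thresholds, the control and any spike-in scaling were not given in the sources used here. Each list was called by the authors on 1 library, and the deposited lists hold 9 columns as MACS2 writes broad peaks, with no header. The deposited score is −log10 q times 10, cut to a whole number. Fold enrichment, a ratio, and −log10 q were taken as the authors deposited them, and −log10 p was not tested. Read totals were not given, so depth is unknown. Names in the lists carry the tags bc0.5 (TASOR KO) and bc0.3 (TASOR2 KO), whose meaning is not stated. The largest q was 0.460 and 0.258, each below the number in its tag, so the lists end at unlike q. Effects of thresholds, selection and genotype on the lists cannot be told apart here.

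Coordinates are 1-based on hg38. Gene bodies came from a RefSeq GRCh38.p14 gene table (59679 genes, 20037 protein-coding), and sequences and strands from RefSeq promoter windows of that assembly, which were given for 79.1% of protein-coding genes. No genome sequence was used, so repeats, LINE-1 overlap and exons were not analysed here. Distances run from edge to edge. Shares carry Clopper-Pearson 95% intervals, medians order-statistic 95% intervals, a count of 0 is given the limit of 3 counts of the total, and odds ratios are conditional ones with exact 95% intervals; no p-value was computed. Shares of bases were counted over every base outside protein-coding genes between the first and last gene of a chromosome. Alternatives were the higher-scoring 50% of each list, a common q threshold, equal numbers of peaks, a margin of 1 kb to genes, leaving out chromosomes, joining peaks to loci, other distances, and several added after the data were seen. A locus was represented by its strongest peak. The steps were tested on simulated intervals. The peaks and gene lists were chosen with earlier results of these data known. Named peaks were, per list and class, the 8 of highest −log10 q, per list the 3 nearest to and farthest from protein-coding genes, the 3 others of least overlap, the largest groups, and up to 6 closest pairs between lists; noncoding genes met more than once were named too. Further genes are said to be named after their values were seen. Tools were Python 3.11.15, scipy 1.17.1, numpy 2.4.6, pandas 2.3.3 and, for plots, matplotlib 3.10.9.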

Additional observations from a re-analysis of the deposited data

How the results depend on the processing

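No paired analysis was possible because the lists hold a lone library per genotype, which also bars leaving 1 out. Across 198 alternatives of 24 results, 167 stayed inside the main 95% interval (shares and medians) or kept their direction and whether the interval holds 1 (odds ratios), 27 moved outside that interval, 4 odds ratios came to include 1 and 0 reversed; the cause was not tested where it does not follow from the setting. With pseudogenes left out, a noncoding gene was met by 25.3% in TASOR KO and 30.4% in TASOR2 KO. In the higher-scoring 50% of each list, median widths were 2632 and 1948 bp. The median distances to a protein-coding gene there were 79.0 and 157 kb, which turns their order. In that 50%, 10.47% and 22.2% had a neighbour within 100 kb (odds ratio 2.42, 0.736 to 7.89, an interval that includes 1). There, 0 peaks of either list lay within 100 kb of one outside protein-coding genes in the other. With TASOR KO held to the largest q of TASOR2 KO, and with equal numbers of peaks, its median width was 2240 and 2236 bp and its neighbour share 9.91% and 10.0%; the TASOR2 KO share near the other list was 7.61% in both. With equal numbers the TASOR KO median distance was 80.1 kb, below the 92.0 kb of TASOR2 KO, which turns their order. Joined to loci, each represented by its strongest peak, the TASOR2 KO median distance was 26.4 kb. Without chromosomes 1 and 7 the TASOR KO neighbour share was 9.03% and the TASOR2 KO gene-free median to any gene 10.3 kb, and without chromosome 19 the share of TASOR KO peaks nearest to a ZNF gene was 6.42%. At 20 kb the neighbour shares were 7.07% and 27.2%, at 500 kb 38.9% in TASOR KO with an odds ratio of 1.38, and at 10 kb the shares near the other list were 1.01% and 1.09%. Alternatives added after the data were seen were the removal of the largest groups, equal numbers outside genes, the removal of chromosomes 10 and 21, and all those of the side of the gene. Without the 3 largest groups the TASOR2 KO neighbour share was 21.9% (odds ratio 2.10), with equal numbers outside genes the TASOR KO share was 9.78%, the TASOR2 KO median distance without the largest group was 51.5 kb, and without chromosomes 10 and 21 the shares near the other list were 2.25% and 6.17%. The odds ratio for the side of the gene stayed above 1 with its interval in 11 alternatives and not with peaks held to a q of at most 0.05 (4.89, 0.357 to 295). These alternatives reuse the same near peaks and are not independent of each other.

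These lists come from 1 clone and 1 library per genotype and are parts of longer numbered lists of unknown selection. Neither a replicate nor an MPP8 KO list was compared, so the spread between libraries and the background of the antibody are unknown. Depth is unknown, and most peaks have a q above 0.05.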
